A study of Mus musculus with 9 samples.

Results

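The genes described here encode the subunits of the 4 complexes of the mitochondrial respiratory chain and of the ATP synthase, with some of their assembly factors. They were chosen by gene symbol: names beginning with Nduf and a, b, c, s or v (complex I), Sdha to Sdhd (complex II), Uqcr (complex III), Cox4 to Cox8 (complex IV) and Atp5 (ATP synthase, also called complex V). The rule found 94 of the 18193 genes that the array measures with a probe set of 1 symbol. Of these, 82 encode subunits or their isoforms and 12 encode assembly factors of complex I or complex II. All measurements come from 3T3-L1 cells, a line of mouse fat cell precursors that turn into adipocytes under hormone treatment.

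The series asked which genes depend on the transcription factor Ebf1 (early B cell factor) in fat cells. Mature 3T3-L1 adipocytes received lentivirus with a scrambled hairpin, with Ebf1 hairpin 1 or with Ebf1 hairpin 2, and 3 arrays were run for each. All 3 groups, the scrambled control included, went through 3 to 4 rounds of viral infection and at least 8 days in puromycin at 5 µg/ml, an antibiotic that kills cells without the virus. Each array is labelled as a numbered repeat, and whether the repeats came from separate cultures is not stated. The p-values therefore measure only how these arrays spread, and that spread may be technical.

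The respiratory chain carries electrons from NADH, through complex I, and from succinate, through complex II, to complex III, cytochrome c and finally complex IV, where oxygen is reduced. Complexes I, III and IV pump protons across the inner mitochondrial membrane, and the ATP synthase lets them return through a rotor that drives ATP formation. Most subunits are encoded in the nucleus and joined inside the organelle with a core made from mitochondrial DNA, with the help of assembly factors. White adipocytes use the chain for lipid synthesis and secretion, while brown adipocytes hold far more of it and can uncouple it to make heat.

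Values are deposited log2 signals, and differences are log2 units between group means, so a difference of 1 is a doubling of signal. A gene is said to rise or fall only where limma's adjusted p was below 0.05, with the adjustment over all 12735 genes tested. A gene was tested when the mean of its brightest probe set reached 5.72, which 92 of the 94 members did; the exceptions were Cox6b2 and Cox7b2, rare isoforms found mainly in testis. Array medians lay between 6.31 and 6.38, and the number of arrays limits the precision. Most members lay near the upper end of the array's range: 70 of the 92 averaged at least 12, where differences may be compressed. In bulk samples, fewer cells of a type and less RNA per cell cannot be told apart.

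Ebf1 itself averaged 10.19 ± 0.10, 9.44 ± 0.11 and 8.94 ± 0.24 with the scrambled hairpin, hairpin 1 and hairpin 2 (SD, n = 3 each), and it fell with each hairpin (-0.75 and -1.25, limma adjusted p = 0.000102 and 2.98e-07). The labelled cell type was borne out by its markers: adipocyte markers averaged 12.52 to 12.61 on the scrambled arrays, 12.51 to 12.59 with hairpin 1 and 12.45 to 12.48 with hairpin 2. Of the 7 tested, 0 rose and Pparg, the master regulator of fat cells, fell with both hairpins (-0.25 and -0.56, limma adjusted p = 0.000533 and 9.07e-08), while Cidec, of the lipid droplet, fell with hairpin 2 (-0.25, adjusted p = 0.00255). Preadipocyte and fibroblast markers averaged 9.02 to 9.15 on scrambled arrays, 9.62 to 9.78 with hairpin 1 and 9.67 to 9.76 with hairpin 2. With hairpin 1, 4 of the 4 tested markers of that list rose, and with hairpin 2, 3 rose and Dlk1 fell; the part of these and the other marker changes in the results below was not tested. Macrophage markers averaged 6.11 to 6.30, 5.95 to 6.17 and 6.04 to 6.39, with Adgre1, Itgam and Ptprc below the signal filter; of the 4 tested, Laptm5 fell with both hairpins (-1.22 and -1.82) and Cd68 rose with hairpin 2 (1.18). In the brown and beige fat list Ucp1, Dio2 and Elovl3 lay below the filter.

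With hairpin 1, many genes of the respiratory chain and ATP synthase rose by small amounts. Of the 92 members tested, 42 rose (45.7%) and 2 fell (2.17%), while among all genes tested 23.7% rose and 9.23% fell. One of the 2, Ndufb4, passed the signal filter through its scrambled arrays alone, and without it 1 of 91 fell. The median difference of the members was 0.13, beside 0.067 over all genes tested. On 58 members every hairpin 1 array lay above every scrambled array, and on 3 members every one lay below. These are 63% and 3.26% of the members, and the same was true of 30.5% and 12.9% of all genes tested. The count moved with the scaling of the arrays: with arrays shifted to equal medians of the genes tested, 17 members rose, 4 fell and the median was 0.050. In that scaling 2263 of all 12735 genes rose, 1795 fell and the median was -0.014. With the limma trend option off 20 members and 2870 of all genes rose. In both settings the members' share of risers lay near that of all genes tested, so the excess of risers depends on these choices. The fallers numbered 1 without scrambled array 1 and 5 without hairpin 1 array 1, beside 865 and 1336 of all genes. Among genes averaging at least 12, a level chosen after the values were seen, 52.9% of 70 members and 36.6% of 1247 genes rose, with medians of 0.13 and 0.086.

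With hairpin 2 the members as a group lay near the scrambled arrays and moved both ways. Of the 92, 14 rose and 14 fell (15.2% each), while 21.5% of all genes tested rose and 13.3% fell; without Ndufb4, 13 fell. The members' median was 0.0039, beside 0.024 over all genes tested. On 29 members the hairpin 2 arrays all lay above the scrambled arrays and on 24 all lay below, which is 31.5% and 26.1%, beside 30.1% and 19.3% over all genes. With arrays shifted to equal medians of the genes tested, 8 members rose, 19 fell and the median was -0.037. In that scaling 2542 of all 12735 genes rose and 2177 fell. The median was also below 0 with arrays shifted to equal medians of all probe sets (-0.0061) and with quantile normalization (-0.011). The count of risers was 6 without scrambled array 1, and the count of fallers was 9 without hairpin 2 array 1. Among genes averaging at least 12, 18.6% of the 70 members and 29.8% of the 1247 genes rose. At that level 12.9% of the members and 18% of the genes fell, with medians of 0.0083 and 0.042.

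Set against each other, hairpin 2 gave lower signals than hairpin 1: 41 members were lower with hairpin 2 (44.6%) and 1 was higher (1.09%), beside 17.4% and 11.6% of all genes tested. The median difference between the hairpins was -0.10, beside -0.035 over all genes tested. On 44 members every hairpin 2 array lay below every hairpin 1 array (47.8%, beside 21% of all genes), and on 1 every one lay above (1.09%, beside 14.7%). With arrays shifted to equal medians of the genes tested, 26 members were lower and 0 higher, and with the limma trend option off 23 were lower and 0 higher. Of all 12735 genes tested, 2027 were lower and 1897 higher in the former setting, and 2051 and 1371 in the latter. Without hairpin 1 array 2 or hairpin 2 array 1, 27 members were lower in each case. Among genes averaging at least 12, 42.9% of the 70 members and 24.6% of the 1247 genes were lower with hairpin 2 than with hairpin 1.

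**Figure D1:**
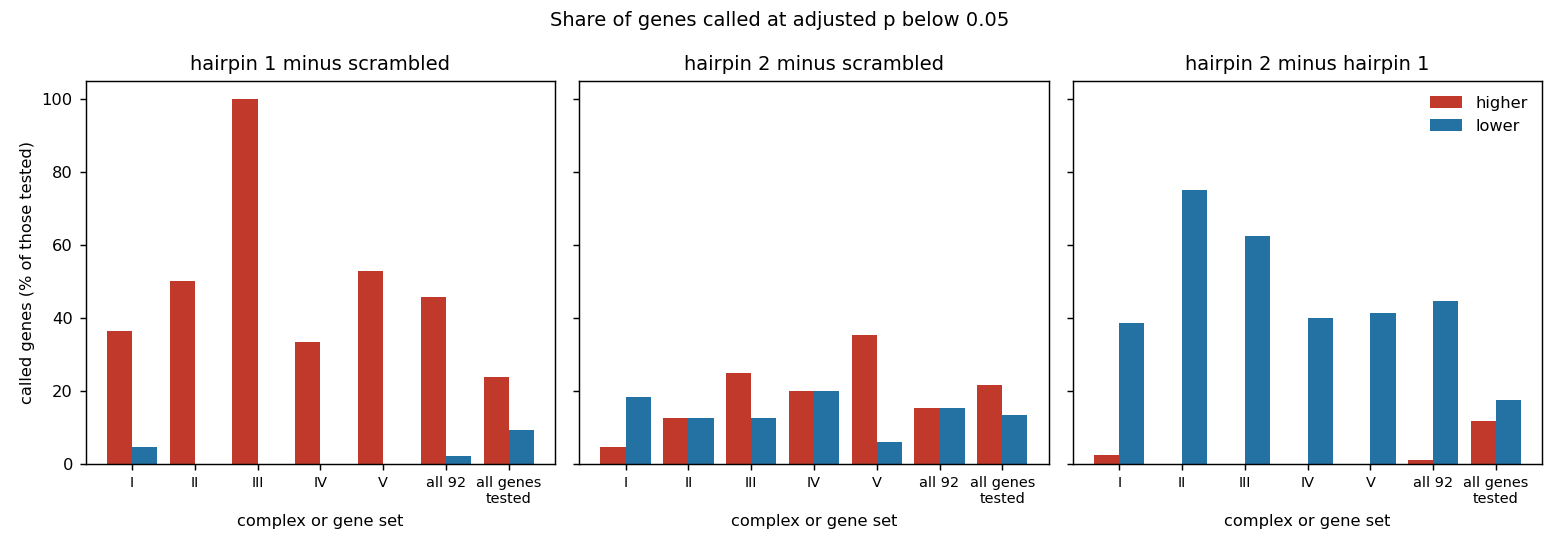
Percentage of tested genes called higher (red) or lower (blue) by limma in each of the 3 contrasts, for complexes I to V, for the 92 members together and for all 12735 genes tested. In the deposited scaling with the limma trend on, the members exceed all genes among the higher calls with hairpin 1 (45.7% against 23.7%). They also do so among the lower calls of hairpin 2 against hairpin 1 (44.6% against 17.4%).

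The contrasts against scrambled share the same 3 scrambled arrays, so their calls are set side by side and are not independent. With both hairpins, 13 members rose and 1, Ndufb4, fell (14.1% and 1.09% of the 92), where 13.7% and 4.87% of all genes did. Another 26 rose with hairpin 1 and were not called with hairpin 2, and 10 fell with hairpin 2 and were not called with hairpin 1. These are 28.3% and 10.9% of the 92, and the same shares over all genes were not counted. Over all genes tested, 23.7% rose with hairpin 1 and 13.7% with both hairpins, and 13.3% fell with hairpin 2 and 4.87% with both. No excess is read from the 28.3% and 10.9%. There were 3 members, Cox7a2l, Ndufb2 and Uqcrh, that rose with hairpin 1 and fell with hairpin 2 (3.26%, beside 1.55% of all genes in opposite directions). Cox7a2 rose with hairpin 2 alone among the calls, and Ndufc2 fell with hairpin 1. Another 37 members (40.2%) were called with neither, a share not counted over all genes.

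The settings of the processing were varied in 18 ways (array scaling, filter, probe set rule, variance model, replicate block and leaving out each array). With hairpin 1, 14 of the 42 rises were called in all 19 settings, main setting included: Atp5e, Atp5g1, Atp5g2, Atp5o, Cox7a1, Cox8b, Ndufs1, Ndufv3, Sdhaf2, Sdhaf4, Uqcr11, Uqcrc1, Uqcrc2 and Uqcrfs1. With hairpin 2, 4 of the 14 rises were, those of Atp5g1, Cox8b, Ndufs1 and Uqcr11, and so were the falls of Cox6a2, Cox7c, Ndufaf3, Ndufaf4, Ndufb2 and Uqcrh. Each other rise or fall of a member against scrambled that is described below was lost in at least 1 setting, apart from those of Ndufb4, which was called in the 18 settings that kept it. Since Ndufb4 passed the signal filter through its scrambled arrays alone, its calls there are a description and no sign of a firm fall. Between the hairpins 17 of 41 lower calls were made in every setting, those of Cox6a2, Cox7a1, Cox7a2l, Ndufa10, Ndufaf3, Ndufaf4, Ndufaf8, Ndufb10, Ndufb2, Ndufs1, Ndufs3, Ndufv1, Sdhaf2, Sdhb, Sdhc, Uqcrfs1 and Uqcrh.

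**Figure D2:**
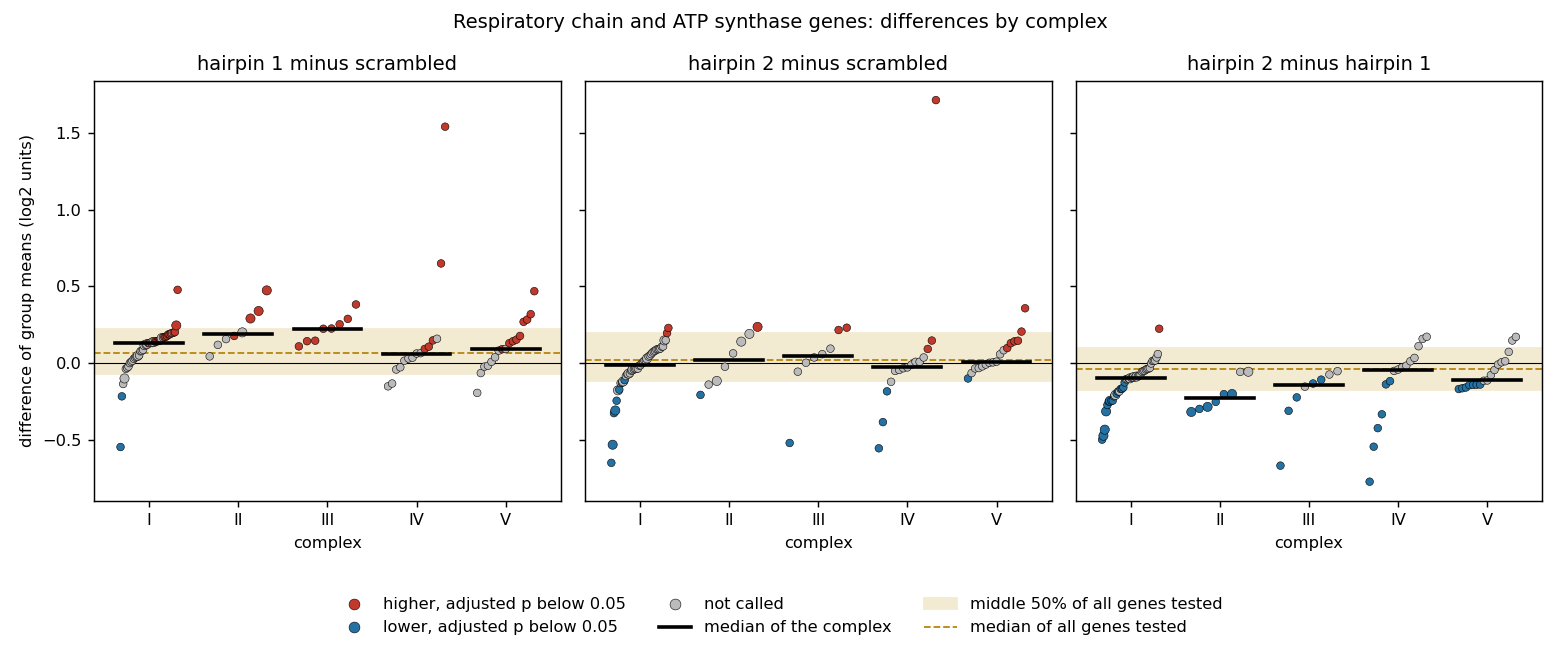
Log2 difference of each tested member, grouped by complex I to V, for hairpin 1 minus scrambled, hairpin 2 minus scrambled and hairpin 2 minus hairpin 1. Each point is 1 gene, red or blue where called and grey where not; larger points are assembly factors, the thick line is the median of the complex, and the dashed line and band give the median and middle 50% of all genes tested. With hairpin 1 the medians run from 0.064 (complex IV) to 0.23 (complex III), and with hairpin 2 from -0.026 to 0.049.

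**Figure D3:**
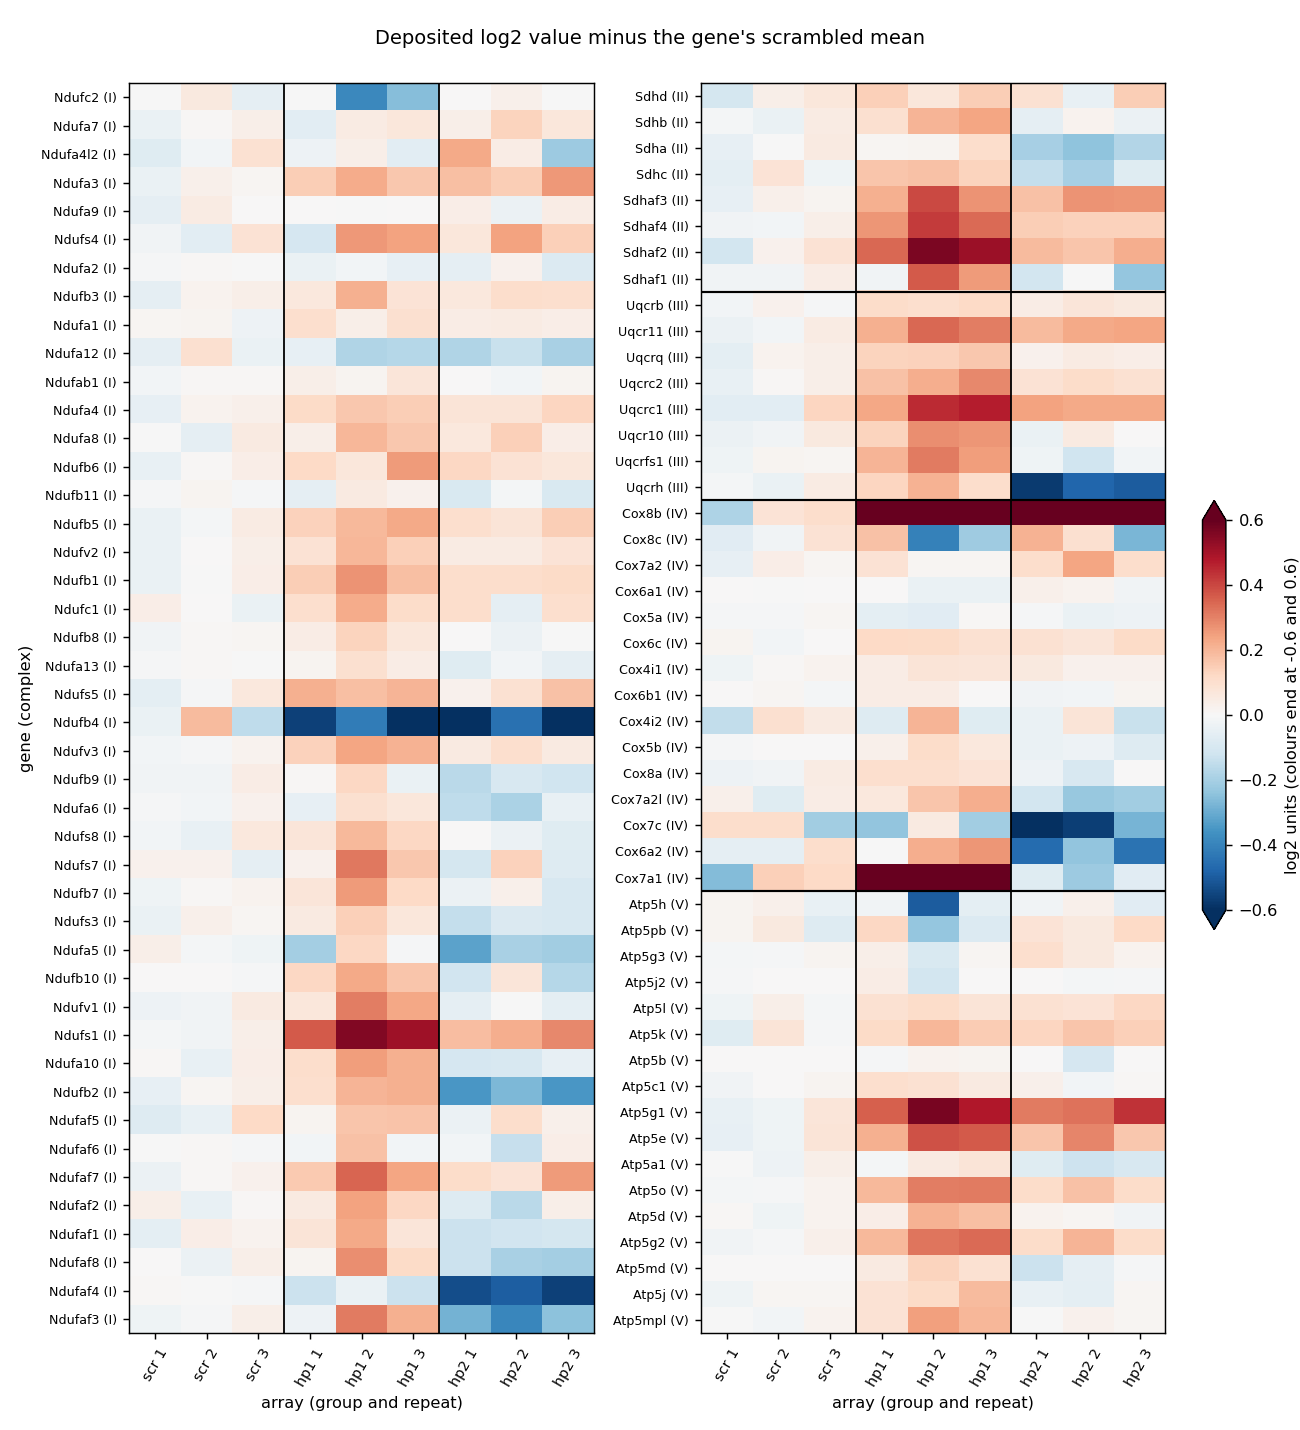
Log2 signal of each member on each of the 9 arrays, as the difference from the mean of the 3 scrambled arrays, by complex; colours end at -0.6 and 0.6. Cox8b stands out as higher on all 6 hairpin arrays, and Cox7a1 as higher on the 3 hairpin 1 arrays.

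Promoter windows from 250 bases before to 50 after a gene's start were available from RefSeq (assembly GRCm38.p6) for 78 of the 94 genes, 83 windows in all. They were searched on both strands for 4 motifs: TCCCNNGGG, from the core recognised by Ebf proteins, GCGCATGCG for Nrf1, CCGGAAGT for the factor made by Gabpa and Gabpb1, and TCAAGGTCA for the oestrogen-related receptors. The Ebf motif was found in 6.02% of the members' windows, those of Atp5b, Atp5k, Cox6a1, Ndufa8 and Ndufv3, and in 6.56% of all 32851 windows. The Nrf1 motif was found in 10.8% of the members' windows, those of Atp5g2, Atp5k, Atp5l, Cox6a1, Ndufa8, Ndufaf4, Ndufaf5, Uqcr11 and Uqcrc1, and in 1.75% of all windows; in some it matches both strands at overlapping letters. The motif of Gabpa was found in 6.02%, those of Atp5h, Cox8a, Ndufs3, Uqcr11 and Uqcrh, beside 3.89% of all windows. The receptor motif was found in 2.41%, those of Atp5g3 and Sdhd, beside 0.423%. Windows of Atp5k, Cox6a1 and Ndufa8 hold both the Ebf and the Nrf1 motif, and Uqcr11 those of Nrf1 and Gabpa. A match describes letters and shows no binding, and no match says only that these letters are not in the window. The 250 bases before the start are shown with the genes on which the results turn: Cox8b and Cox7a1, with the highest rises with hairpin 1, Uqcrh, which fell with hairpin 2, and Atp5g2, which rose with both hairpins.

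Complex I, the NADH dehydrogenase, is the largest group, with 44 members tested. With hairpin 1, 16 rose and 2 fell (36.4% and 4.55%, beside 23.7% and 9.23% of all genes tested), with a median of 0.13. With hairpin 2, 2 rose and 8 fell (4.55% and 18.2%, beside 21.5% and 13.3%), with a median of -0.013. Between the hairpins 17 were lower and 1 was higher with hairpin 2 (38.6% and 2.27%, beside 17.4% and 11.6%), with a median of -0.095. When arrays were shifted to equal medians of the genes tested, 3 rose and 4 fell with hairpin 1, beside 2263 and 1795 of all 12735 genes. Without the limma trend 6 rose, beside 2870 of all genes. In both settings the share of risers in complex I lay below that of all genes tested. Leaving out 1 array gave 9 to 24 risers, beside 2215 to 4087 of all genes. Over the deposited scaling and 3 other array scalings the complex I median ranged from 0.050 to 0.13 with hairpin 1, from -0.055 to -0.013 with hairpin 2 and from -0.095 to -0.055 between them.

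The N module of complex I takes up NADH and passes its electrons to a chain of iron-sulfur clusters. Ndufs1, the large iron-sulfur subunit of this module, changed most among its 7 genes. Ndufs1 read 12.29, 12.28 and 12.34 on the scrambled arrays, 12.67, 12.86 and 12.81 with hairpin 1 and 12.49, 12.52 and 12.60 with hairpin 2. All hairpin 1 arrays lay above all hairpin 2 arrays, and these lay above all scrambled arrays. Ndufs1 rose 1.39-fold with hairpin 1 (0.48, SE 0.057, limma adjusted p = 1.05e-05) and 1.17-fold with hairpin 2 (0.23, adjusted p = 0.00455), and it was lower with hairpin 2 than with hairpin 1 (-0.25, adjusted p = 0.00379).

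The other N module genes moved less. Ndufv1, which holds the NADH site and the flavin, averaged 13.26 ± 0.049, 13.46 ± 0.12 and 13.22 ± 0.030 (SD, n = 3 each). It rose by 0.20 with hairpin 1 (limma adjusted p = 0.00916) and was lower with hairpin 2 than with hairpin 1 (difference -0.24, adjusted p = 0.00333); the rise was no longer called without hairpin 1 array 2 (adjusted p = 0.051). Ndufv2, an iron-sulfur subunit next to it, rose by 0.14 with hairpin 1 (adjusted p = 0.0111), a call lost without scrambled array 1 (adjusted p = 0.0618). With hairpin 2 the differences of Ndufv1 and Ndufv2 were -0.039 and 0.060 and were not called. Other Ndufv1 probe sets of nearly the same signal (13.23 and 13.28) fell with hairpin 2 (-0.19 and -0.19, limma adjusted p = 0.00603 and 0.0064 over all probe sets) and differed by 0.073 and 0.088 with hairpin 1, not called. In the whole module 4 of 7 genes rose with hairpin 1 (57.1%, beside 23.7% of all genes tested). With hairpin 2, 1 of 7 rose and 1 fell (14.3% each, beside 21.5% and 13.3%). The faller was Ndufa12, an accessory subunit, which fell by 0.17. The Ndufa12 call was lost without scrambled array 2 or hairpin 2 array 1 or 3 (adjusted p = 0.057 to 0.114), and a dimmer Ndufa12 probe set rose with hairpin 2 instead (0.47).

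The Q module passes the electrons on to ubiquinone. Of its 4 genes measured, 1 rose with hairpin 1 (25%, beside 23.7% of all genes tested) and 2 fell with hairpin 2 (50%, beside 13.3%). Ndufs3, a core subunit, read lower with hairpin 2 than with hairpin 1 (difference -0.20, limma adjusted p = 0.00155); against scrambled it differed by 0.088 with hairpin 1, not called, and by -0.11 with hairpin 2 (adjusted p = 0.0457). That last call was lost without scrambled array 1, 2 or 3, hairpin 1 array 3 or hairpin 2 array 1, 2 or 3 (adjusted p = 0.0502 to 0.161). Ndufs8, a core subunit that holds iron-sulfur clusters, rose by 0.13 with hairpin 1 (adjusted p = 0.0262), a call lost without scrambled array 1 or 2 or hairpin 1 array 2 or 3 (adjusted p = 0.0576 to 0.114). Ndufs7, which lines the quinone site, differed by 0.17 and -0.014 and was not called with either hairpin.

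The P module is the membrane arm that pumps protons, and its nuclear genes encode accessory subunits around a core made in the mitochondrion. Of 19 genes, 9 rose and 2 fell with hairpin 1 (47.4% and 10.5%, beside 23.7% and 9.23% of all genes tested). With hairpin 2, 1 rose and 3 fell (5.26% and 15.8%, beside 21.5% and 13.3%). Ndufa3, a small membrane subunit, was the riser with both hairpins, by 0.18 and 0.20 (limma adjusted p = 0.00283 and 0.00105). The first call was lost with the mean of its probe sets, with the limma trend off and with equal medians of the genes tested (adjusted p = 0.0963, 0.0595 and 0.11), and the second with the mean of its probe sets (adjusted p = 0.356), which takes in a probe set at 5.72; the other bright one rose by 0.17 and 0.19. Ndufa3 read 13.62, 13.69 and 13.67 on the scrambled arrays, 13.81, 13.88 and 13.82 with hairpin 1 and 13.84, 13.81 and 13.92 with hairpin 2. All 6 hairpin arrays lay above the 3 scrambled arrays.

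Ndufb2, an accessory subunit of the same arm, moved in opposite directions. Ndufb2 read 13.12, 13.19 and 13.21 on the scrambled arrays, 13.28, 13.38 and 13.39 with hairpin 1 and 12.83, 12.90 and 12.83 with hairpin 2. The hairpin 1 arrays all lay above the scrambled arrays and the hairpin 2 arrays all lay below them. Ndufb2 rose by 0.17 with hairpin 1 (limma adjusted p = 0.0101) and fell by 0.32 with hairpin 2 (adjusted p = 4.84e-05). The rise was lost without scrambled array 1 (adjusted p = 0.0618). It was also lost with the mean of its probe sets, with the limma trend off and with equal medians of the genes tested. The direct difference between the hairpins was -0.50 (SE 0.047, adjusted p = 1.16e-06).

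Ndufb4 and Ndufc2, membrane arm subunits, were the 2 counted as fallers with hairpin 1, and other probe sets that name them were not called. The Ndufb4 probe set used averaged 6.21 ± 0.18, 5.67 ± 0.12 and 5.56 ± 0.18 (SD, n = 3 each), so it passed the filter of 5.72 through the scrambled arrays alone; its differences of -0.54 and -0.65 are therefore given as a description. Brighter probe sets that name Ndufb4 together with its copies Ndufb4b and Ndufb4c averaged 13.65 and 13.43. These differed by -0.0035 and 0.077 with hairpin 1 and by -0.059 and 0.015 with hairpin 2, and none was called. Ndufc2 differed by -0.21 with hairpin 1 (adjusted p = 0.0262) on the probe set used, while its other probe sets differed by 0.0077, 0.063 and 0.0070; the call was lost without scrambled array 1 or 2 or hairpin 1 array 2 or 3 (adjusted p = 0.0638 to 0.15). It was also the member called higher with hairpin 2 than with hairpin 1 (0.23, adjusted p = 0.0227), which was lost without hairpin 1 array 2 or 3 or hairpin 2 array 1, 2 or 3 (adjusted p = 0.0556 to 0.126).

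Ndufa4, named with complex I but known as a subunit of complex IV, rose by 0.14 with hairpin 1 (limma adjusted p = 0.00621), and its difference with hairpin 2 was 0.093, not called. Its hypoxia-inducible relative Ndufa4l2 averaged 6.43 ± 0.083, 6.41 ± 0.050 and 6.45 ± 0.22 (SD, n = 3 each) and was not called in any contrast. By their symbols both were counted among the 44 members of complex I, and Ndufa4 among its 16 risers with hairpin 1. Neither is in the counts of complex IV.

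Of the 8 assembly factors of complex I, 1 rose with hairpin 1 (12.5%, beside 23.7% of all genes tested), 2 fell with hairpin 2 (25%, beside 13.3%), and 4 were lower with hairpin 2 than with hairpin 1 (50%, beside 17.4%). The 2 that fell were Ndufaf3 and Ndufaf4, which act together early in assembly. Ndufaf4 read 11.19, 11.18 and 11.18 on the scrambled arrays, 11.06, 11.14 and 11.06 with hairpin 1 and 10.65, 10.69 and 10.62 with hairpin 2. Ndufaf3 read 10.90, 10.93 and 10.97 on the scrambled arrays, 10.90, 11.24 and 11.14 with hairpin 1 and 10.65, 10.54 and 10.69 with hairpin 2. For both genes the hairpin 2 arrays lay below all other arrays. Ndufaf4 fell 1.44-fold with hairpin 2 (-0.53, SE 0.066, limma adjusted p = 1.09e-05), and its other probe set fell as well (-0.54). Ndufaf3 fell 1.24-fold (-0.31, adjusted p = 0.0107). With hairpin 1 they differed by -0.098 and 0.16, not called.

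Complex II, succinate dehydrogenase, joins the citric acid cycle to the chain and is the only complex encoded wholly in the nucleus. Of its 8 members tested, 4 subunits and 4 assembly factors, 4 rose with hairpin 1 and 0 fell (50% and 0%, beside 23.7% and 9.23% of all genes tested). With hairpin 2, 1 rose and 1 fell (12.5% each, beside 21.5% and 13.3%), and 6 were lower with hairpin 2 than with hairpin 1 (75%, beside 17.4%). The medians were 0.19, 0.022 and -0.23 for hairpin 1, hairpin 2 and their difference, and over the 4 scalings they ranged from 0.11 to 0.19, from -0.020 to 0.022, where the sign changed, and from -0.23 to -0.18.

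The calls with hairpin 1 lay mostly in the assembly factors, 3 of 4 (75%), against 1 of the 4 subunits (25%, beside 23.7% of all genes tested). In each class 3 of 4 genes had all hairpin 1 arrays above the scrambled arrays, as did 30.5% of all genes tested. The medians were 0.32 for the factors and 0.14 for the subunits. The difference between factors and subunits was not tested. Sdhaf2, which helps attach the flavin to the catalytic subunit, rose most. Sdhaf2 read 10.90, 11.04 and 11.10 on the scrambled arrays, 11.36, 11.57 and 11.53 with hairpin 1 and 11.20, 11.18 and 11.23 with hairpin 2. The hairpin 1 arrays all lay above the rest. Sdhaf2 rose 1.39-fold with hairpin 1 (0.47, SE 0.076, limma adjusted p = 0.000194), differed by 0.19 with hairpin 2, not called, and was lower with hairpin 2 than with hairpin 1 (-0.28, adjusted p = 0.0108). Sdhaf4, which also serves the flavoprotein, rose by 0.34 with hairpin 1 (adjusted p = 0.000302). Sdhaf3, which helps mature the iron-sulfur subunit, rose by 0.29 and 0.24 (adjusted p = 0.00551 and 0.017), and its call with hairpin 2 was lost without scrambled array 1 or hairpin 2 array 2 or 3 (adjusted p = 0.0561 to 0.0831).

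Among the subunits, Sdhb, the iron-sulfur protein, rose by 0.18 with hairpin 1 (limma adjusted p = 0.00562). Sdha, the flavoprotein that oxidises succinate, fell by 0.20 with hairpin 2 (adjusted p = 0.00208), and its difference with hairpin 1 was 0.045, not called. Sdha read 13.14, 13.18 and 13.24 on the scrambled arrays, 13.20, 13.21 and 13.29 with hairpin 1 and 12.99, 12.95 and 13.01 with hairpin 2. The hairpin 2 arrays lay below the scrambled arrays and the hairpin 1 arrays overlapped them. Sdhc, a membrane anchor, was lower with hairpin 2 than with hairpin 1 (difference -0.30, adjusted p = 0.00162), while against scrambled it differed by 0.16 and -0.14, neither called. Sdhd, the other anchor, differed by 0.12 and 0.065 and was not called.

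Complex III, the cytochrome bc1 complex, passes electrons from ubiquinol to cytochrome c. All 8 of its members rose with hairpin 1, with a median of 0.23, while with hairpin 2, 2 rose and 1 fell (median 0.049). On all 8 the hairpin 1 arrays lay above the scrambled arrays. Between the hairpins 5 of 8 were lower with hairpin 2 and 0 higher (median -0.14). Over all genes tested 23.7% rose with hairpin 1 and 17.4% were lower with hairpin 2 than with hairpin 1. For 30.5% of all genes tested the hairpin 1 arrays all lay above the scrambled arrays. The 2 that rose and 1 that fell with hairpin 2 are 25% and 12.5% of the complex, beside 21.5% and 13.3% of all genes tested. With arrays shifted to equal medians of the genes tested, 5 of the 8 rose with hairpin 1, beside 2263 of all 12735 genes. The count was also 5 with equal medians of all probe sets, with the limma trend off and with the mean of all probe sets of a gene. Over the 4 scalings the median ranged from 0.14 to 0.23 with hairpin 1, 0.0079 to 0.049 with hairpin 2 and -0.14 to -0.10 between them.

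Uqcrc1 and Uqcrc2 are the core proteins that face the matrix. Uqcrc1 read 12.82, 12.83 and 13.02 on the scrambled arrays, 13.12, 13.34 and 13.36 with hairpin 1 and 13.13, 13.12 and 13.12 with hairpin 2. The 6 hairpin arrays all lay above the scrambled arrays. Uqcrc1 rose 1.3-fold with hairpin 1 (0.38, SE 0.064, limma adjusted p = 0.00029) and 1.17-fold with hairpin 2 (0.23, adjusted p = 0.010), the latter call being lost without scrambled array 1 or 2 (adjusted p = 0.0504 to 0.0532). Uqcrc2 rose by 0.23 with hairpin 1 (adjusted p = 0.00065), and its difference with hairpin 2 was 0.096, not called.

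Uqcrfs1, the Rieske iron-sulfur protein that hands electrons to cytochrome c1, rose by 0.25 with hairpin 1 (limma adjusted p = 0.00050), differed by -0.054 with hairpin 2, and was lower with hairpin 2 than with hairpin 1 (difference -0.31, adjusted p = 0.000101). Uqcr11, a small membrane subunit, rose with both hairpins, by 0.29 and 0.22 (adjusted p = 6.34e-05 and 0.000609). The remaining small subunits Uqcrb, Uqcrq and Uqcr10 rose by 0.11, 0.14 and 0.23 with hairpin 1. The Uqcrq rise was lost without scrambled array 1 (adjusted p = 0.0621). The Uqcrb rise was lost with equal medians of all probe sets or of the genes tested, with the limma trend off and when its probe sets were averaged, the other of which (12.91) differed by 0.018. With hairpin 2 these 3 genes differed by 0.060, 0.038 and 0.0041, not called.

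Uqcrh, the hinge protein that helps cytochrome c1 meet cytochrome c, was the member of its complex that fell with hairpin 2. Uqcrh read 13.52, 13.49 and 13.58 on the scrambled arrays, 13.66, 13.74 and 13.64 with hairpin 1 and 12.95, 13.05 and 13.03 with hairpin 2. The 3 hairpin 2 arrays lay below all scrambled arrays, and the hairpin 1 arrays lay above them. Uqcrh fell 1.43-fold with hairpin 2 (-0.52, SE 0.044, limma adjusted p = 1.51e-07), and it was lower with hairpin 2 than with hairpin 1 (difference -0.66, adjusted p = 2.59e-08). With hairpin 1 it rose by 0.15 (adjusted p = 0.0176), a call lost without scrambled array 1 or 2 or hairpin 1 array 2 (adjusted p = 0.0631 to 0.0797). That call was also lost with the limma trend off and in each of the 3 other array scalings. The other Uqcrh probe set also fell with hairpin 2 (-0.41) and was not called with hairpin 1.

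The 250 bases before the Uqcrh start (chr4:116075071-116075320 on the minus strand, GRCm38.p6) hold the Gabpa motif, shown in capitals as it reads on the gene's strand, where it is the reverse complement. The sequence runs 5′ to 3′.
Uqcrh: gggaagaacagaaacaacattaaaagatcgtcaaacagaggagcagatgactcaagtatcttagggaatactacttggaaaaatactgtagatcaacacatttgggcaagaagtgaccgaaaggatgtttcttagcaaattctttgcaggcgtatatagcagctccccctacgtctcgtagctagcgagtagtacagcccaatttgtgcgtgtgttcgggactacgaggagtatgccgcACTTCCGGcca

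Complex IV, cytochrome c oxidase, has several subunits that come in a common and a tissue-bound isoform. Of its 15 members tested, 5 rose and 0 fell with hairpin 1 (median 0.064), 3 rose and 3 fell with hairpin 2 (median -0.026), and 6 were lower with hairpin 2 than with hairpin 1 (median -0.040). The shares that rose, 33.3% with hairpin 1 and 20% with hairpin 2, stand beside 23.7% and 21.5% of all genes tested. With hairpin 2, 20% fell, beside 13.3%, and 40% were lower than with hairpin 1, beside 17.4%. Leaving out 1 array gave 2 to 5 risers with hairpin 1. The median with hairpin 1 changed sign with the scaling, from -0.018 to 0.064, as did that between the hairpins, from -0.040 to 0.00060; with hairpin 2 it ranged from -0.067 to -0.026.

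Among the 10 common subunits 3 rose with hairpin 1 (30%, beside 23.7% of all genes tested). Hairpin 2 gave 2 calls in each direction (20% each, beside 21.5% and 13.3%). Cox4i1, Cox5a and Cox5b, which sit next to the catalytic core, differed by 0.064, -0.040 and 0.066 with hairpin 1 and by 0.038, -0.026 and -0.049 with hairpin 2, with no call. Cox5b was lower with hairpin 2 than with hairpin 1 (-0.12, limma adjusted p = 0.00956). Cox6a1 and Cox6b1, the common forms of the outer subunits, differed by -0.025 and 0.032 with hairpin 1 and by 0.010 and -0.0082 with hairpin 2, not called. Cox6c rose by 0.11 and 0.094 (adjusted p = 0.0171 and 0.0339), calls lost without scrambled array 2 (adjusted p = 0.0653) for hairpin 1 and without scrambled array 1, 2 or 3 or hairpin 2 array 1 or 3 (adjusted p = 0.061 to 0.11) for hairpin 2; on the mean of its probe sets Cox6c differed by -0.099 with hairpin 1. Cox7c, a small membrane subunit, fell by 0.55 with hairpin 2 (adjusted p = 0.00377) on a probe set that averaged 8.37 ± 0.18, 8.24 ± 0.16 and 7.82 ± 0.27 (SD, n = 3 each) and differed by -0.13 with hairpin 1, not called.

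The highest rises with hairpin 1 among the 92 members were those of the tissue isoforms Cox8b and Cox7a1. Cox8b, the heart and skeletal muscle form of subunit VIII, is also a known marker of brown and beige fat. Cox8b read 11.43, 11.69 and 11.72 on the scrambled arrays, 13.02, 13.18 and 13.25 with hairpin 1 and 13.24, 13.48 and 13.25 with hairpin 2. The 6 hairpin arrays lay well above the 3 scrambled arrays, and those of the hairpin groups overlapped. Cox8b rose 2.9-fold with hairpin 1 (1.54, SE 0.083, limma adjusted p = 1.90e-09) and 3.27-fold with hairpin 2 (1.71, SE 0.083, adjusted p = 1.65e-10). The hairpins differed by 0.17, which was not called (adjusted p = 0.14). Its common counterpart Cox8a rose by 0.094 with hairpin 1 (adjusted p = 0.0446), a call lost without scrambled array 1 or 2, hairpin 1 array 1, 2 or 3 or hairpin 2 array 1 (adjusted p = 0.062 to 0.162), and differed by -0.043 with hairpin 2. Cox8c, a testis form, averaged 7.98 ± 0.078, 7.83 ± 0.30 and 7.99 ± 0.25 (SD, n = 3 each) and was not called.

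Cox7a1, the muscle and brown fat form of subunit VIIa, rose with hairpin 1 and not with hairpin 2. Cox7a1 read 9.51, 9.92 and 9.89 on the scrambled arrays, 10.39, 10.48 and 10.41 with hairpin 1 and 9.70, 9.56 and 9.71 with hairpin 2. The hairpin 1 arrays all lay above the rest, and the hairpin 2 arrays overlapped the scrambled arrays. Cox7a1 rose 1.57-fold with hairpin 1 (0.65, SE 0.10, limma adjusted p = 0.000175), differed by -0.12 with hairpin 2 (adjusted p = 0.423), and was lower with hairpin 2 than with hairpin 1 (difference -0.77, adjusted p = 3.83e-05). Cox7a2, the common form, differed by 0.037 with hairpin 1 and rose by 0.15 with hairpin 2 (adjusted p = 0.0126), which was lost without scrambled array 1 or hairpin 2 array 2 (adjusted p = 0.0701 to 0.0793).

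Cox8b (chr7:140900447-140900696 on the minus strand) and Cox7a1 (chr7:30183921-30184170 on the plus strand, both GRCm38.p6) hold none of the 4 motifs in the 300 bases searched, so no letter is in capitals. Their 250 bases before the start run 5′ to 3′ on the gene's strand.
Cox8b: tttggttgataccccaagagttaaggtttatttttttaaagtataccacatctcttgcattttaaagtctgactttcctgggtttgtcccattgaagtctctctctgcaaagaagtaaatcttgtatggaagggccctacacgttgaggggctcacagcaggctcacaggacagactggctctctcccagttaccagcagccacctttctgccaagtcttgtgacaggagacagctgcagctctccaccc
Cox7a1: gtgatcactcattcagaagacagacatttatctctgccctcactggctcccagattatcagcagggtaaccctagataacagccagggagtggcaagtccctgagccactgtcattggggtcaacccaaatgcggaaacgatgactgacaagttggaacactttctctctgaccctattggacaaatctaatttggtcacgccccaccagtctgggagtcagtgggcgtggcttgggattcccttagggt

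Cox7a2l, which helps join complex III and complex IV into supercomplexes, was the member of complex IV called in opposite directions. Cox7a2l read 12.85, 12.75 and 12.87 on the scrambled arrays, 12.88, 12.99 and 13.04 with hairpin 1 and 12.71, 12.59 and 12.61 with hairpin 2. The hairpin 1 arrays lay above and the hairpin 2 arrays below the scrambled arrays. It rose by 0.15 with hairpin 1 (limma adjusted p = 0.0485), fell by 0.18 with hairpin 2 (adjusted p = 0.0169) and differed by -0.33 between them (adjusted p = 0.000297). The rise was lost without scrambled array 1, 2 or 3, hairpin 1 array 2 or 3 or hairpin 2 array 1, 2 or 3 (adjusted p = 0.0511 to 0.208) and the fall without scrambled array 1 or 3 or hairpin 2 array 2 or 3 (adjusted p = 0.0611 to 0.0781). The rise was also lost in each of the 3 other array scalings, and both were lost with the limma trend off.

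Cox6a2, the muscle form of subunit VIa, fell with hairpin 2 and read 8.83 ± 0.089, 8.99 ± 0.14 and 8.45 ± 0.12 in the 3 groups (SD, n = 3 each). Its differences were 0.16 with hairpin 1, not called, and -0.38 with hairpin 2 (limma adjusted p = 0.00695), with -0.54 between the hairpins (adjusted p = 0.000735). Cox4i2, a form of subunit IV tied to low oxygen, averaged 6.62 ± 0.13, 6.64 ± 0.16 and 6.59 ± 0.11 and was not called. The tissue isoforms therefore did not share a direction: with hairpin 2, Cox8b rose, Cox6a2 fell and Cox7a1 was not called. Within the brown and beige fat markers, Cidea fell by 0.76 with hairpin 2 (adjusted p = 0.000527), and its difference with hairpin 1 was -0.20, not called.

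**Figure D4:**
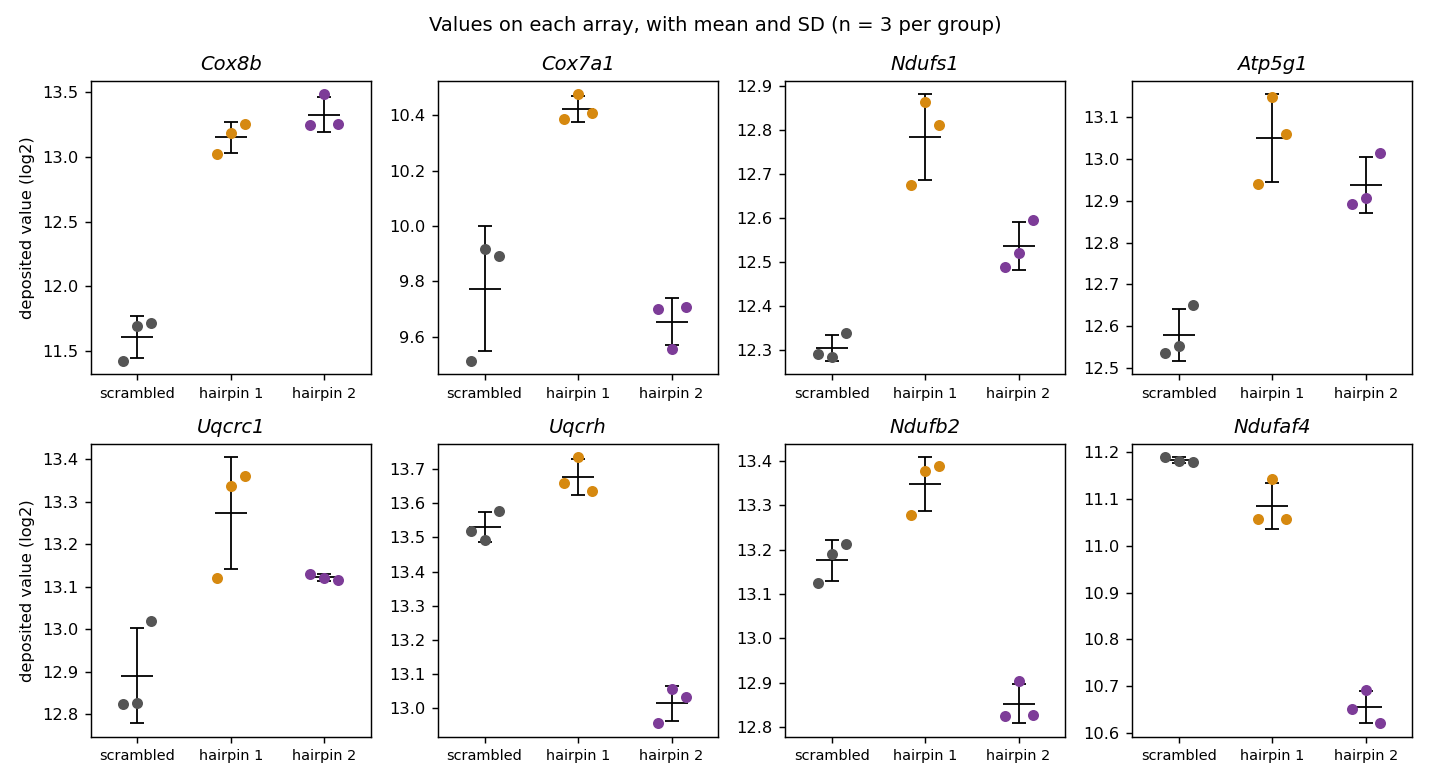
Log2 signal of selected members on each of the 9 arrays, with scrambled, hairpin 1 and hairpin 2 side by side; each point is 1 array, bars give the mean and SD (n = 3), and the axes differ between genes and do not start at 0. Cox8b is higher with both hairpins, Cox7a1 with hairpin 1, and Uqcrh and Ndufb2 are lowest with hairpin 2.

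The ATP synthase (complex V) has 17 members tested. With hairpin 1, 9 rose and 0 fell (median 0.094), with hairpin 2, 6 rose and 1 fell (median 0.011), and 7 were lower with hairpin 2 than with hairpin 1 (median -0.11). The shares that rose were 52.9% and 35.3%, beside 23.7% and 21.5% of all genes tested, and 41.2% were lower between the hairpins, beside 17.4%. The shares that fell were 0% and 5.88%, beside 9.23% and 13.3%. After a shift of the arrays to equal medians of the genes tested, 4 rose with hairpin 1, 2 rose with hairpin 2 and 1 was lower between them. Without the limma trend these counts were 4, 1 and 0. Of all 12735 genes tested, 2263, 2542 and 2027 were called so after the shift and 2870, 2627 and 2051 without the trend. With hairpin 2 and between the hairpins the shares of the complex lay below those of all genes in both settings. All 6 that rose with hairpin 2 also rose with hairpin 1: Atp5e, Atp5g1, Atp5g2, Atp5k, Atp5l and Atp5o. The median ranged over the 4 scalings from 0.012 to 0.094 with hairpin 1, changed sign with hairpin 2, from -0.030 to 0.011, and ranged from -0.11 to -0.070 between the hairpins.

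Atp5g1, Atp5g2 and Atp5g3 encode the same mature c subunit of the proton-driven rotor ring, each with its own import signal. Atp5g1 read 12.54, 12.55 and 12.65 on the scrambled arrays, 12.94, 13.15 and 13.06 with hairpin 1 and 12.89, 12.91 and 13.02 with hairpin 2. Atp5g2 read 12.82, 12.83 and 12.87 on the scrambled arrays, 13.04, 13.16 and 13.18 with hairpin 1 and 12.95, 13.05 and 12.95 with hairpin 2. Atp5g3 read 14.24, 14.24 and 14.27 on the scrambled arrays, 14.28, 14.16 and 14.26 with hairpin 1 and 14.35, 14.31 and 14.27 with hairpin 2. For Atp5g1 and Atp5g2 the 6 hairpin arrays lay above the scrambled arrays. For Atp5g3 the hairpin 2 arrays also lay above them, the lowest by less than the rounding shown, while the hairpin 1 arrays overlapped them. Atp5g1 rose 1.38-fold with hairpin 1 (0.47, SE 0.059, limma adjusted p = 1.78e-05) and 1.28-fold with hairpin 2 (0.36, adjusted p = 0.000158). Atp5g2 rose by 0.28 and 0.14 (adjusted p = 0.000413 and 0.0354), and its call with hairpin 2 was lost without scrambled array 1, 2 or 3 or hairpin 2 array 1, 2 or 3 (adjusted p = 0.0509 to 0.15). Atp5g3 differed by -0.015 and 0.059 and was not called.

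Of the c subunit genes, Atp5g2 holds the Nrf1 motif, in capitals where it matches both strands at overlapping letters, in the 250 bases before its start (chr15:102671048-102671297 on the minus strand, GRCm38.p6), written 5′ to 3′ on the gene's strand.
Atp5g2: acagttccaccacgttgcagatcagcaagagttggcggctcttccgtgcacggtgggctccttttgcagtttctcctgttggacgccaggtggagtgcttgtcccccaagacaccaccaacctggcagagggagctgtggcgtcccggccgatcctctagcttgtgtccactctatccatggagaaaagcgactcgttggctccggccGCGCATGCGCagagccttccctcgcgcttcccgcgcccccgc

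F1 is the catalytic head, and its alpha and beta subunits, Atp5a1 and Atp5b, form the sites where ATP is made. Atp5b differed by 0.010 and -0.033, not called, and Atp5a1 by 0.039, not called, and by -0.098 with hairpin 2 (limma adjusted p = 0.0437). That fall of Atp5a1 was lost without scrambled array 1 or 3 or hairpin 2 array 1, 2 or 3 (adjusted p = 0.0586 to 0.163), and on the mean of its probe sets it differed by 0.058. That mean takes in a dim probe set (7.34) that differed by 0.44, while its other bright probe set (13.49) fell by 0.16 (adjusted p = 0.0172 over all probe sets). Atp5c1, the gamma subunit of the central shaft, differed by 0.083 and 0.0067, not called, and by -0.16 with hairpin 2 on the mean of its probe sets (adjusted p = 0.0301). Atp5d, the delta subunit, rose by 0.14 with hairpin 1 (adjusted p = 0.0139), which was lost without scrambled array 2 or hairpin 1 array 2 or 3 (adjusted p = 0.0564 to 0.0711).

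Atp5e, the epsilon subunit at the foot of the shaft, rose with both hairpins. Atp5e read 13.16, 13.18 and 13.28 on the scrambled arrays, 13.42, 13.59 and 13.57 with hairpin 1 and 13.37, 13.50 and 13.37 with hairpin 2. The 6 hairpin arrays lay above the scrambled arrays. The differences were 0.32 with hairpin 1 (SE 0.054, limma adjusted p = 0.000312) and 0.21 with hairpin 2 (adjusted p = 0.00699). Atp5o, which ties the head to the peripheral stalk and gives sensitivity to oligomycin, rose by 0.27 and 0.13 (adjusted p = 8.84e-05 and 0.017), the latter lost without scrambled array 1 or 2 or hairpin 2 array 2 (adjusted p = 0.0518 to 0.080). Atp5k and Atp5l, membrane subunits that help pair the enzyme into dimers, rose by 0.15 and 0.092 with hairpin 1 and by 0.15 and 0.10 with hairpin 2. With hairpin 2 the Atp5k call was lost without scrambled array 1 (adjusted p = 0.0571). The Atp5l calls were lost without scrambled array 1 or 3, hairpin 1 array 2 or 3 or hairpin 2 array 1 or 3 (adjusted p = 0.0506 to 0.155) for hairpin 1 and without scrambled array 1 or 3 or hairpin 2 array 1 or 3 (adjusted p = 0.063 to 0.114) for hairpin 2.

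Other genes of the pathway, outside the symbol rule, were followed from a list of 47, of which 44 were tested. With hairpin 1, 13 rose and 8 fell (29.5% and 18.2%), with hairpin 2, 8 rose and 13 fell (18.2% and 29.5%), and 6 were higher and 16 lower with hairpin 2 than with hairpin 1. The same shares over all genes tested were 23.7% and 9.23%, 21.5% and 13.3%, and 11.6% and 17.4% for these contrasts.

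Atpif1, the natural inhibitor of the ATP synthase when it runs in reverse, rose with both hairpins. Atpif1 read 10.84, 10.78 and 10.80 on the scrambled arrays, 11.32, 11.34 and 11.15 with hairpin 1 and 11.65, 11.81 and 11.70 with hairpin 2. The 3 groups did not overlap, with scrambled lowest and hairpin 2 highest. Atpif1 rose 1.38-fold with hairpin 1 (0.46, SE 0.073, limma adjusted p = 0.000163) and 1.88-fold with hairpin 2 (0.91, SE 0.073, adjusted p = 7.17e-08), and the hairpins differed by 0.45 (adjusted p = 0.000242).

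A mixed group of 6 genes held Cyc1, Cycs, Uqcc1, Uqcc2, Higd1a and Higd2a. Among them, calls with hairpin 1 were higher for 1 and lower for 1, and calls with hairpin 2 higher for 2 and lower for 3 (16.7% each and 33.3% and 50%, beside the shares over all genes above). Cyc1, the haem-bearing cytochrome c1 of complex III, was lower with hairpin 2 than with hairpin 1 (-0.18, limma adjusted p = 0.00367) and was not called against scrambled. Uqcc1 and Uqcc2, which serve the making of cytochrome b, parted with hairpin 2: Uqcc1 fell by 0.27 and Uqcc2 rose by 0.23, calls lost without scrambled array 1 or 3 or hairpin 2 array 2 (adjusted p = 0.0812 to 0.090) and without scrambled array 1 or 2 or hairpin 2 array 2 (adjusted p = 0.103 to 0.215). Higd2a, which helps build supercomplexes, rose by 0.38 and 0.20, the latter lost without scrambled array 1 or 2 or hairpin 2 array 3 (adjusted p = 0.0552 to 0.0962), and its relative Higd1a fell by 0.20 and 0.21. Cycs, which encodes cytochrome c, differed by 0.032 with hairpin 1, not called, and fell by 0.12 with hairpin 2 (limma adjusted p = 0.014), a call lost without scrambled array 1 or hairpin 2 array 1 (adjusted p = 0.0555 to 0.0616).

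Of 22 further assembly factors that were tested, calls with hairpin 1 were higher for 7 and lower for 4, and calls with hairpin 2 higher for 3 and lower for 7 (31.8% and 18.2%, and 13.6% and 31.8%). Cox17, a copper chaperone, fell by 0.32 and 0.45 (limma adjusted p = 3.61e-05 and 6.29e-07), and Cox11, which delivers copper to the enzyme, rose by 0.38 with hairpin 1 and fell by 0.32 with hairpin 2 (adjusted p = 0.00238 and 0.00628). Of the other copper handling genes, Sco1 fell by 0.35 and 0.42, Sco2 rose by 0.40 with hairpin 1 and Cox19 rose by 0.28 with hairpin 2. The hairpin 1 calls were lost without scrambled array 1 or 2 or hairpin 1 array 3 (adjusted p = 0.0619 to 0.0919) for Sco1 and without scrambled array 1 or 2 or hairpin 1 array 2 or 3 (adjusted p = 0.0527 to 0.0853) for Sco2. Cox15, needed to make haem A, rose by 0.63 with hairpin 1 (adjusted p = 3.75e-05), while Cox10, which acts in the same synthesis, fell by 0.44 with hairpin 2 (adjusted p = 0.000492). Cox20, a chaperone of a core subunit, rose by 0.38 and 0.53, and Cox18, which inserts that subunit into the membrane, fell by 0.32 with hairpin 2. Atpaf1, which helps assemble F1, fell by 0.72 with hairpin 2 (adjusted p = 5.55e-06), and its difference with hairpin 1 was 0.054, not called. Tmem70, which helps build the c ring, fell by 0.24 with hairpin 1, a call lost without scrambled array 1, 2 or 3, hairpin 1 array 2 or 3 or hairpin 2 array 1 (adjusted p = 0.0508 to 0.15).

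For complex III, Bcs1l, which inserts the Rieske protein, and Ttc19, which acts after that step, rose with hairpin 1 by 0.29 and 0.36 (limma adjusted p = 0.0193 and 0.00823), and the Bcs1l call was lost without scrambled array 1 or 2 or hairpin 1 array 2 or 3 (adjusted p = 0.0632 to 0.0921). For complex I, Nubpl, which delivers iron-sulfur clusters, rose by 0.23 with hairpin 1, a call lost without scrambled array 1, 2 or 3, hairpin 1 array 2 or 3 or hairpin 2 array 1 (adjusted p = 0.0528 to 0.145). Acad9, Tmem126b and Timmdc1 encode parts of the machinery that builds its membrane arm. Acad9 rose by 0.45 with hairpin 2, Tmem126b fell by 0.45 with hairpin 1 and Timmdc1 fell by 0.28 with hairpin 2, the last lost without scrambled array 1, 2 or 3 or hairpin 2 array 2 or 3 (adjusted p = 0.0637 to 0.118). On the mean of its probe sets Acad9 differed by -0.38 with hairpin 1 (adjusted p = 0.00151).

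Of 15 regulators of these genes that were tested, calls with hairpin 1 were higher for 4 and lower for 3, and calls with hairpin 2 higher for 2 and lower for 3, and 5 were lower with hairpin 2 than with hairpin 1 while 0 were higher. The shares with hairpin 1 were 26.7% and 20%, beside 23.7% and 9.23% of all genes tested, those with hairpin 2 were 13.3% and 20%, beside 21.5% and 13.3%, and 33.3% were lower between the hairpins, beside 17.4%. Tfb2m, a factor that starts transcription of mitochondrial DNA, rose most. Tfb2m read 10.29, 10.27 and 10.22 on the scrambled arrays, 10.75, 11.04 and 10.82 with hairpin 1 and 10.51, 10.40 and 10.63 with hairpin 2. The 6 hairpin arrays all lay above the scrambled arrays. Tfb2m rose by 0.62 with hairpin 1 (SE 0.089, limma adjusted p = 6.85e-05) and by 0.25 with hairpin 2 (adjusted p = 0.0351), the latter lost without scrambled array 1, 2 or 3 or hairpin 2 array 1 or 3 (adjusted p = 0.074 to 0.152). Its relative Tfb1m, which modifies the mitochondrial ribosome, fell by 0.57 with hairpin 2 (adjusted p = 3.21e-05). Polrmt, the mitochondrial RNA polymerase, fell by 0.27 and 0.44, the former lost without scrambled array 1 or 2 or hairpin 1 array 2 (adjusted p = 0.0744 to 0.0939). Lrpprc, which keeps mitochondrial messenger RNAs stable, fell by 0.24 with hairpin 1, a call lost without scrambled array 1 or 2 or hairpin 1 array 3 (adjusted p = 0.0648 to 0.0872).

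The nuclear regulators Esrra, Gabpa and Gabpb1, whose proteins bind promoters of respiratory chain genes, rose with hairpin 1 by 0.32, 0.29 and 0.36 (limma adjusted p = 0.013, 0.0268 and 0.0247). The Esrra call was lost without scrambled array 1 or hairpin 1 array 3 (adjusted p = 0.0771 to 0.0841), the Gabpa call without scrambled array 2 or 3 or hairpin 1 array 2 or 3 (adjusted p = 0.057 to 0.10) and the Gabpb1 call without scrambled array 2 or 3 or hairpin 1 array 2 or 3 (adjusted p = 0.0612 to 0.0978). Nrf1 differed by 0.27 with hairpin 1, just outside the threshold (adjusted p = 0.0501). Esrra, Gabpa and Nrf1 were lower with hairpin 2 than with hairpin 1, with differences of -0.39, -0.44 and -0.37 (adjusted p = 0.00371, 0.00204 and 0.0102); the Nrf1 call was lost without hairpin 2 array 1 (adjusted p = 0.0536). Yy1, a widely expressed transcription factor, fell by 0.37 with hairpin 1 (adjusted p = 0.00812). Of the relatives of Ppargc1a, with hairpin 2 Ppargc1b fell by 0.26 and Pprc1 rose by 0.24, calls lost without scrambled array 2 (adjusted p = 0.0527) and without scrambled array 1, 2 or 3, hairpin 1 array 3 or hairpin 2 array 2 or 3 (adjusted p = 0.0615 to 0.173). The coactivator gene Ppargc1a itself and the mitochondrial DNA packaging gene Tfam were not called with either hairpin, with differences of 0.035 and -0.080, and 0.026 and -0.030.

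**Figure D5:**
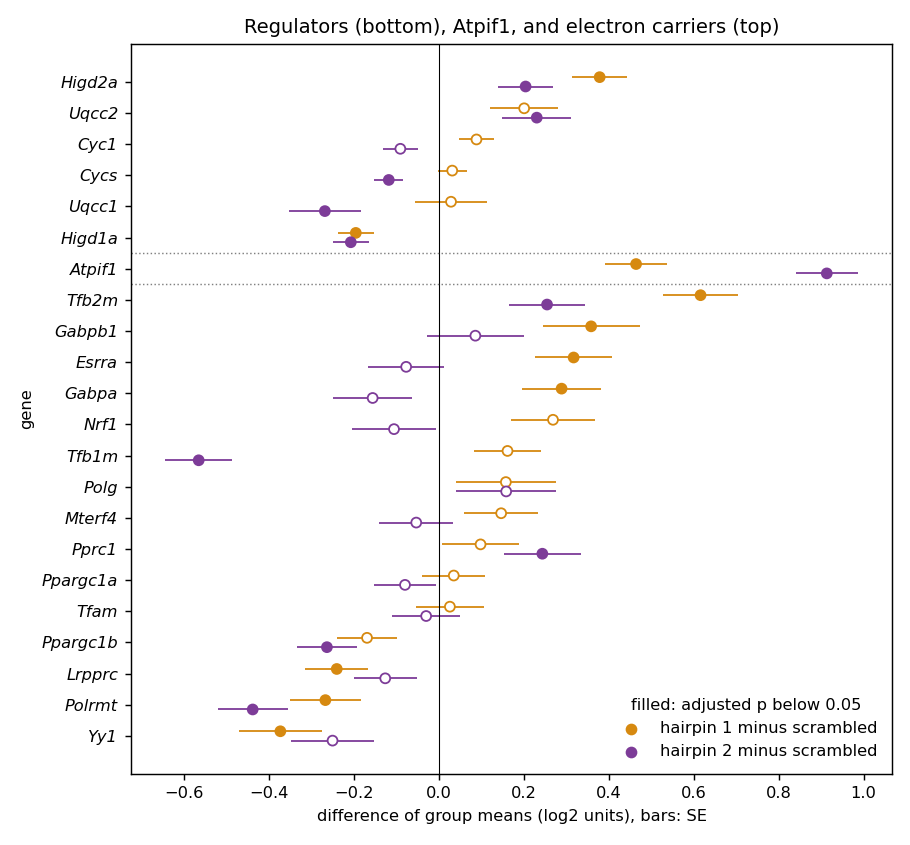
Log2 difference, with its SE, for hairpin 1 minus scrambled and hairpin 2 minus scrambled. Shown are Cyc1, Cycs, Uqcc1, Uqcc2, Higd1a and Higd2a (top, titled electron carriers), Atpif1, and each tested regulator. Filled symbols are genes called by limma and open symbols those not called. Among the regulators Tfb2m lies farthest to the right with hairpin 1 (0.62) and Tfb1m farthest to the left with hairpin 2 (-0.57).

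The members' 185 probe sets allow a check within genes, since 53 members have several. In a fit to all probe sets, of the 51 with more than 1 above the filter, 4 were called with hairpin 1 on all of them, 22 on some and 25 on none. With hairpin 2 the counts were 6, 15 and 30, and between the hairpins 7, 17 and 27. Opposite calls on probe sets of 1 gene arose for Ndufa12 with hairpin 2 and for 0 genes in the other contrasts. The calls above therefore describe the brightest probe set of each gene.

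Set beside the promoter matches, 5 of the 9 genes with the Nrf1 motif rose with both hairpins: Atp5g2, Atp5k, Atp5l, Uqcr11 and Uqcrc1. The same was true of 14.1% of all members tested and 13.7% of all genes tested. It was also true of 6 of the 17 ATP synthase genes, to which Atp5g2, Atp5k and Atp5l belong. The Ebf and Nrf1 motifs had been shortened after a first search with longer forms. With hairpin 2 the calls of Atp5g2, Atp5l, Atp5k and Uqcrc1 were made in 8, 11, 16 and 16 of the 19 settings. Of the other 4 genes with the Nrf1 motif, Ndufaf4 fell with hairpin 2, and Cox6a1, Ndufa8 and Ndufaf5 were not called against scrambled. Of the 5 genes with the Gabpa motif, Uqcr11 rose with both hairpins, Cox8a rose with hairpin 1, Uqcrh rose with hairpin 1 and fell with hairpin 2, Ndufs3 fell with hairpin 2 and Atp5h was not called. Of the 5 with the Ebf motif, Atp5k rose with both hairpins, Ndufv3 rose with hairpin 1, and Atp5b, Cox6a1 and Ndufa8 were not called. Neither Atp5g3 nor Sdhd, which hold the receptor motif, was called. These lists are short, and no difference between genes with and without a motif was tested.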

How the data were processed

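RNA of 9 arrays (3 each with the scrambled hairpin, hairpin 1 and hairpin 2) was amplified and biotin-labelled with NuGEN kits, as the labels' protocols state. The authors deposited log2 values, 1 per probe set and array, made with RMA, per the submitters' processing notes; its version is not given in the sources used here. RMA subtracts background and equalizes the arrays, so a shift common to most genes would be reduced. The table holds 45101 probe sets; 64 controls, 932 that name several genes and 9160 that name none were left out, which left 34945. Value columns without a sample numbered 0. All 94 member identifiers were found in the RefSeq gene table of GRCm38.p6, and 0 symbols differed.

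Each gene was represented by its brightest probe set (by mean over the 9 arrays), and genes at or above the 30th percentile of these means (5.72) were tested. The 3 groups entered 1 linear model over all arrays (lmFit and eBayes with trend, limma version 3.58.1, R version 4.3.3), and p-values, two-sided, were adjusted by Benjamini-Hochberg over 12735 genes. Counts and medians of the members stand beside those of all genes tested, and no test of the list was made. On simulated data with 200 of 12735 genes changed, 4% of changes of 0.15 log2 units, 22% of 0.3, 72% of 0.5 and 100% of 1 were recovered for hairpin 1, and 0%, 28%, 88% and 100% for hairpin 2. The simulation changed 200 genes drawn from all signal levels. In the data, 3023 genes rose with hairpin 1, and 76.1% of the members averaged at least 12, beside 9.79% of all genes tested. The shares recovered are therefore not those to be had for the members. Most members differed by less than 0.3.

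Genes were named in full by rule: the 4 highest and 4 lowest called members of each contrast, those called with both hairpins, core subunits, isoform families, members whose probe sets were called in opposite directions, called genes of the pathway list and Ebf1. Others named, such as Ndufaf3, Sdhaf4, Uqcrb, Uqcrq, Uqcr10 and marker genes, were picked with their values known. The members and lists were chosen with earlier results of these data known. Alternatives were other array scalings, signal filters, probe set rules, variance settings, a replicate block and leaving out each array. Promoter motifs were searched as letters, and the Ebf and Nrf1 motifs were shortened after a first search with longer forms. Scaling by equal medians of the genes tested was added after seeing the data.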

Additional observations from a re-analysis of the deposited data

Results flagged for a closer look

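For 3 members and the further assembly factor Cox11 the hairpins gave calls in opposite directions against the same scrambled arrays, so a difference between the hairpins follows from how they were chosen and is given as a description. Hairpin 2 minus hairpin 1 was -0.66 log2 units for Uqcrh, -0.50 for Ndufb2, -0.33 for Cox7a2l and -0.71 for Cox11. The rises of Uqcrh, Ndufb2 and Cox7a2l with hairpin 1 were each lost without scrambled array 1 (adjusted p = 0.0631, 0.0618 and 0.0838), among other arrays for Uqcrh and Cox7a2l. All 3 rises were also lost with the limma trend off and with equal medians of the genes tested.

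A signal also stood in probe sets that name several genes, which were left out of all counts; 10 of them name a gene of these families. The brighter of those for Ndufa11, a membrane arm subunit of complex I, which also names its copy Ndufa11b, averaged 13.12 over the 9 arrays and differed by 0.27 log2 units with hairpin 1 (limma adjusted p = 0.00304 over all probe sets) and by 0.072 with hairpin 2 (adjusted p = 0.462). The one that names Ndufs6, an N module subunit, with Ndufs6b averaged 12.61 and differed by 0.045 and -0.17 (adjusted p = 0.73 and 0.108). Signals of each gene and its copy cannot be told apart on these probe sets. The remaining 8 were not called with either hairpin.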

How the results depend on the processing

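Over the main setting and 18 alternatives, the members' median minus that of all genes tested was 0.038 to 0.093 with hairpin 1, -0.039 to -0.0040 with hairpin 2 and -0.085 to -0.059 between the hairpins. Calls of members held in every setting for 14 of 42 rises and 1 of 2 falls with hairpin 1, 4 of 14 rises and 7 of 14 falls with hairpin 2, and 17 of 41 lower and 0 of 1 higher between the hairpins. The fall held with hairpin 1 was that of Ndufb4, which is also among the 7 with hairpin 2. That gene passed the signal filter through its scrambled arrays alone. Of 145 called results among the 261 for named genes, 75 held in every setting. Settings follow that moved a count by 1.5 times or more, moved the median by more than the SD between arrays or changed its sign. The cause was not tested. With arrays shifted to equal medians of all probe sets 28 rose with hairpin 1, its median was 0.093, that of hairpin 2 was -0.0061 and 2 members were higher between the hairpins. Quantile normalization gave 4 fallers and a median of 0.080 with hairpin 1, a median of -0.011 with hairpin 2, and 2 higher between the hairpins. With arrays shifted to equal medians of the genes tested, added after seeing the data, hairpin 1 had 17 risers, 4 fallers and a median of 0.050, hairpin 2 had 8 risers and a median of -0.037, and between the hairpins 26 were lower, 0 higher and the median was -0.062. Without the trend the counts were 20 and 1 with hairpin 1, 6 and 9 with hairpin 2, and 0 higher and 23 lower between the hairpins. Of all 12735 genes tested, 2263 rose with hairpin 1 after the shift to equal medians of the genes tested and 2870 without the trend. These shares lay near those of the members. With array weights 64 rose and 5 fell with hairpin 1 and 4 were higher between the hairpins. A filter at the 50th percentile left 2 higher between the hairpins, and the mean of all probe sets of a gene left 0. That mean also turned 6 differences that were called before or after, for Cox6c, Ndufb6 and the pathway gene Acad9 with hairpin 1 to -0.099 (adjusted p = 0.324), -0.075 (0.515) and -0.38 (0.00151), and for Atp5a1, Atp5c1 and Ndufab1 with hairpin 2 to 0.058 (0.622), -0.16 (0.0301) and -0.21 (0.0485). It changed the sign of 10, 11 and 7 of the 92 members in the 3 contrasts.

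The replicate block gave 41 risers and 2 fallers with hairpin 1, 16 and 14 with hairpin 2, and 2 higher and 41 lower between the hairpins. Deviations from group means of same-numbered arrays correlated at -0.29 to 0.25, so the pairing by number was not taken as given. Leaving out 1 array at a time gave 29 to 51 risers, 1 to 5 fallers and a median of 0.097 to 0.15 with hairpin 1. With hairpin 2 it gave 6 to 19 risers, 9 to 16 fallers and a median of -0.0085 to 0.0085. Between the hairpins it gave 0 to 4 higher, 27 to 50 lower and a median of -0.13 to -0.082. With 3 arrays a group, the number of arrays limits the precision.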
